A study of Homo sapiens with 16 samples.

Results

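Cultures of stem-cell-derived islets that had received Moxifloxacin were set directly against cultures that had received Ly-294002, with no solvent control as the base. The comparison held 4 of the 16 libraries of the series, 2 with each compound, chosen by their treatment labels. The title of the first Ly-294002 sample spells the compound Ly-294022, while its description and treatment label both read Ly-294002. Moxifloxacin, a fluoroquinolone antibiotic that acts on bacterial type II topoisomerases, was given at 1.1 uM. Ly-294002, a synthetic inhibitor of phosphoinositide 3-kinases (PI3K), was given at 120 nM. The doses differed and the molecules are unrelated, so compound and dose cannot be told apart. Each compound was in the medium from stage 5 of a planar differentiation until day 7 of stage 6. All 4 cultures were grown from the established embryonic stem cell line HUES8, labelled wild type and given the same batch label, batch 1. Whole cultures were lysed, and total RNA was sequenced after removal of ribosomal RNA. The study had picked both drugs with a computational tool, DBSOMA, as candidates for an effect on the maturation of beta cells, and the direct comparison asks whether their cultures differed from each other. The labels do not tell whether the replicate libraries stand for independent differentiations; every p-value therefore rests on a spread between libraries that could be technical.

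Endocrine cells of the pancreas arise from a progenitor epithelium through a cascade of transcription factors. NEUROD1, ISL1 and PAX6 act early in that cascade and stay on in all hormone-producing islet cells, where they help switch on hormone genes. These cells store their products in dense-core granules packed with chromogranins such as CHGA. ATF3 is a transcription factor of another kind, an early responder to stress and growth signals that binds the ATF/CRE sequence. PI3K passes the insulin signal to the kinase AKT, which keeps FOXO factors out of the nucleus.

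The 4 libraries held 26433740 and 28277384 reads with Moxifloxacin, and 30701868 and 25397321 reads with Ly-294002. Levels are given below as CPM, read numbers brought to a common library size with TMM factors, which correct for differences in composition between libraries. A floor of 3 reads stood at 0.0977 to 0.118 CPM in these libraries, and it covers counting error only. The label of islets went with low counted levels of the islet hormones. How reads in overlapping genes were counted is not given, so these levels could be too low, which was not tested. Insulin (INS) stood at 1.64 and 6.25 CPM with Moxifloxacin and at 0.78 and 2.48 CPM with Ly-294002, and MAFA, a factor of mature beta cells, had 11 reads at most in any of the 4 libraries. AFP, a fetal liver gene, stood at 4994 and 5416 CPM with Moxifloxacin and at 4631 and 5379 CPM with Ly-294002.

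The promoters of CHGA, PAX6 and NEUROD1 are shown because their genes went up and down together across the libraries described below, and because the ATF/CRE sequence TGACGTCA is the one that ATF3 and the CREB family bind. They are windows of 300 bases, from 250 before to 50 after a transcription start, taken from RefSeq on GRCh38.p14, written 5′ to 3′ on the gene's strand with that sequence in capitals. CHGA lies on the plus strand at chr14:92922900-92923199, PAX6 on the minus strand at chr11:31817912-31818211 and NEUROD1 on the minus strand at chr2:181680468-181680767.
CHGA: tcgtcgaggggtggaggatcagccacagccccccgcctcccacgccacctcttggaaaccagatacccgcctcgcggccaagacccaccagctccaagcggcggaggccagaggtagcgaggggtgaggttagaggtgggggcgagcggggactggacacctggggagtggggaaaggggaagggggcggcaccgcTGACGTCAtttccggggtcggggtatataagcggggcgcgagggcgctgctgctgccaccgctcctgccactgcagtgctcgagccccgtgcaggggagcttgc
PAX6: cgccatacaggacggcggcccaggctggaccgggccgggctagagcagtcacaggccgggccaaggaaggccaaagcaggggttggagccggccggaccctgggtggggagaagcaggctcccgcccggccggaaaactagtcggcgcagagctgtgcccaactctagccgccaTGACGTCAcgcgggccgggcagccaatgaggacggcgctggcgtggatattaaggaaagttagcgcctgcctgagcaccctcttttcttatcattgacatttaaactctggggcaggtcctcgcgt
NEUROD1: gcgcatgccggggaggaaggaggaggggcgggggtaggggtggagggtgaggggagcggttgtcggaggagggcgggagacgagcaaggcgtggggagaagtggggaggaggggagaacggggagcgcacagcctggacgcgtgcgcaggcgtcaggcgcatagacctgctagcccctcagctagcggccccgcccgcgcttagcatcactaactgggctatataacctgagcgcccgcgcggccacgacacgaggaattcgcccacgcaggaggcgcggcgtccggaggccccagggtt
The sequence is a palindrome, so a search of 1 strand covers both. It begins 54 bases before the start in CHGA and 76 bases before it in the outermost of the 9 PAX6 starts, and it is in none of the other 8 PAX6 windows. The windows of NEUROD1, ISL1 and ATF3 do not hold it. Of all 35116 windows in the table, 1.85% do, and a match of letters is not evidence of binding.

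No gene passed the test between Moxifloxacin and Ly-294002. Of 24515 genes tested with edgeR's quasi-likelihood F test, two-sided, 0 (0%) had a Benjamini-Hochberg adjusted p under 0.05, and the smallest adjusted p was 0.935. At an unadjusted p under 0.05 there were 1142 genes (4.66%), 452 higher with Moxifloxacin (1.84%) and 690 lower (2.81%), where 1226 would be expected if no gene differed. DESeq2 called 0 genes as well, with 1033 at an unadjusted p under 0.05 and a smallest adjusted p of 0.0824. The count at an unadjusted p under 0.05 depended on single libraries: it was 1894 without Moxifloxacin 1, 582 without Moxifloxacin 2 and 673 without Ly-294002 1. Among 17596 genes of at least 1 CPM, the median standard error (SE) of a difference was 0.18 on the log2 scale, and the median size of the difference was 0.13. With no filter on low counts 387 genes passed, among them PAX6, ISL1 and NEUROD1 with edgeR adjusted p of 0.00695, 0.0164 and 0.000475, in a fit where the SE of PAX6 was 0.27 in place of 1.42. The values below describe 4 cultures, and no gene is called changed.

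PAX6 and NEUROD1 differed more between the 2 Moxifloxacin cultures than between the compounds. PAX6 (ENSG00000007372, chromosome 11, 31789026 to 31817961) had 2.36 and 15.3 CPM with Moxifloxacin, against 2.41 and 5.78 CPM with Ly-294002. NEUROD1 (ENSG00000162992, chromosome 2, 181668295 to 181680517) had 1.98 and 10.7 CPM with Moxifloxacin, against 1.24 and 3.38 CPM with Ly-294002. For both genes the second Moxifloxacin culture stood far above the other 3, and the first lay just under the range of the Ly-294002 cultures for PAX6 and inside it for NEUROD1. The log2 difference was 1.13 ± 1.42 (SE) for PAX6, with a 95% interval from -2.10 to 4.35 and an edgeR adjusted p of 0.954. For NEUROD1 it was 1.48 ± 1.24, with an interval from -1.32 to 4.28 and an edgeR adjusted p of 0.936. These intervals hold both no difference and a large one in either direction.

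ISL1 was the exception among the 3 endocrine factors, because the groups did not overlap. ISL1 (ENSG00000016082, chromosome 5, 51383448 to 51394730) had 9.50 and 15.4 CPM with Moxifloxacin, against 6.91 and 6.76 CPM with Ly-294002. Both Moxifloxacin cultures lay above both Ly-294002 cultures, an order found in 18.3% of all tested genes. Group means were 12.4 ± 4.16 CPM with Moxifloxacin and 6.83 ± 0.106 CPM with Ly-294002 (SD, n = 2 each). The log2 difference was 0.86 ± 0.49 (SE), with a 95% interval from -0.23 to 1.95 and an edgeR adjusted p of 0.935. It was 0.47 without Moxifloxacin 2 and 1.17 without Moxifloxacin 1.

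ATF3 differed between the groups by less than the spread between the Ly-294002 cultures. ATF3 (ENSG00000162772, chromosome 1, 212565407 to 212620777) had 75.9 and 73.5 CPM with Moxifloxacin, against 86.6 and 65.8 CPM with Ly-294002. The Moxifloxacin values lay inside the range of the Ly-294002 values. The log2 difference was -0.03 ± 0.12 (SE), with a 95% interval from -0.29 to 0.23 and an edgeR adjusted p of 0.985.

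**Figure D1:**
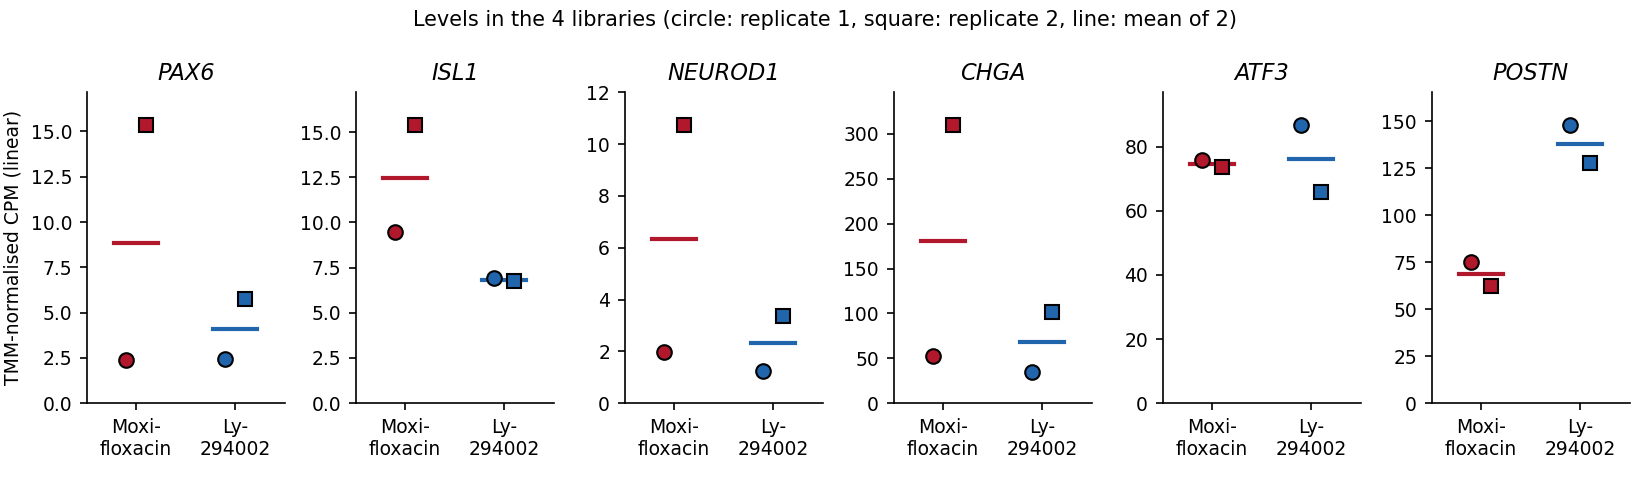
Level of 6 genes in the 4 libraries, in TMM-normalised CPM on linear axes that start at 0, Moxifloxacin on the left and Ly-294002 on the right. Circles are replicate 1, squares replicate 2 and lines the mean of 2; for PAX6, NEUROD1 and CHGA the Moxifloxacin mean rests on replicate 2, for ISL1 and POSTN the groups do not overlap, and for ATF3 they do.

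The endocrine content of each library was summarised by a score that holds none of those 4 genes. It is the mean of log2(CPM + 1) over 19 genes, mostly of the secretory granule and of exocytosis. Among them are CHGA, CHGB, PCSK1, PCSK2 and SYT13, and also the channel genes CACNA1A and SCN3A and the motor gene KIF5C. A 20th gene, SCG5, had too few reads to be tested. The score was 3.84 and 4.88 with Moxifloxacin, against 3.50 and 4.13 with Ly-294002. Moxifloxacin 2 had the highest score of all 16 libraries of the series and Ly-294002 1 the lowest, while Moxifloxacin 1 ranked 10 and Ly-294002 2 ranked 7. In bulk RNA, more endocrine cells and more endocrine RNA per cell cannot be told apart.

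The difference in score between the groups was smaller than the spread within one of them. The means were 4.36 ± 0.731 with Moxifloxacin and 3.81 ± 0.447 with Ly-294002 (SD, n = 2 each), a difference of 0.549. An exact two-sided permutation test gave p = 0.667, in a design that cannot go below 0.333. The 2 Moxifloxacin cultures differed from each other by 1.03 and the 2 Ly-294002 cultures by 0.632. Without Moxifloxacin 2 the difference between groups was 0.0324, without Moxifloxacin 1 it was 1.07, and without Ly-294002 1 it was 0.233. CHGA alone had 52.8 and 310 CPM with Moxifloxacin and 35.2 and 102 CPM with Ly-294002, in the same order of libraries as the score.

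**Figure D2:**
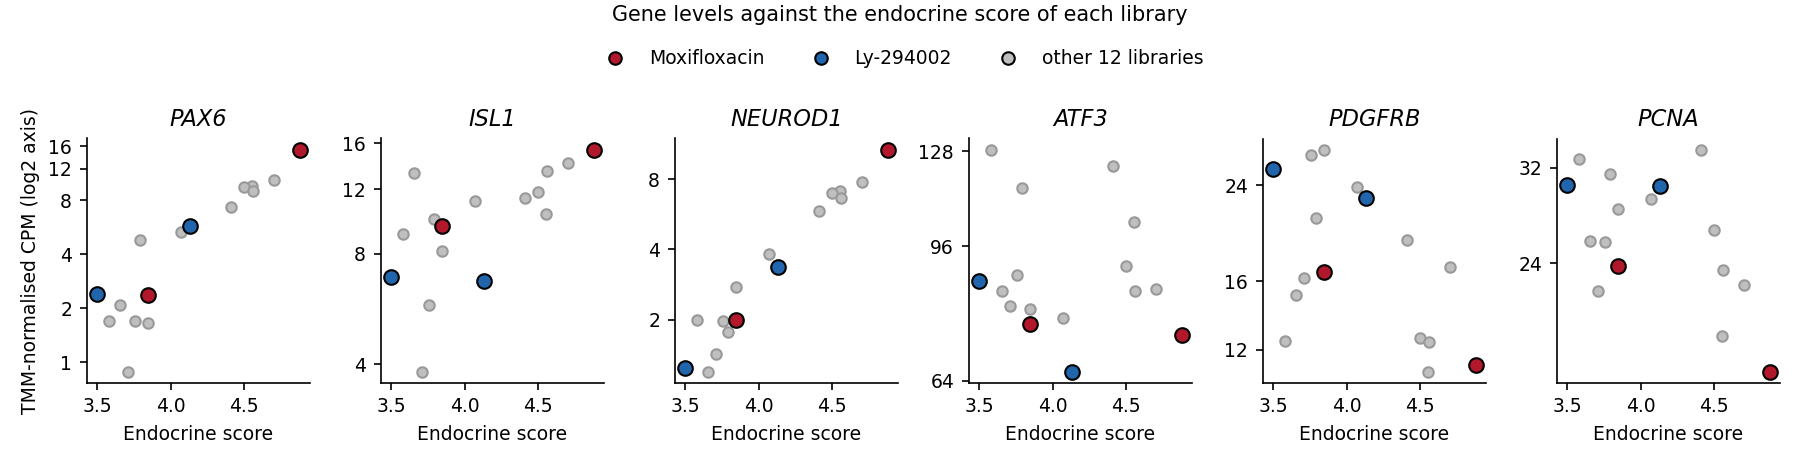
Level of 6 genes (TMM-normalised CPM, log2 axis) against the endocrine score of each of the 16 libraries: Moxifloxacin red, Ly-294002 blue, the 12 libraries of the other 6 groups grey. PAX6 and NEUROD1 climb with the score in red, blue and grey alike, ATF3 shows no such slope, and the 2 blue points of ISL1 lie low for their score.

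To ask how far endocrine content goes with the difference between the compounds, the slope of each gene on the score was measured within the other 6 groups, which hold neither compound. The slope times the score difference of 0.549 is the difference foreseen from endocrine content alone. For PAX6 the foreseen difference was 1.49, above the observed 1.13, and for NEUROD1 it was 1.28 beside an observed 1.48. For ISL1 it was 0.43 beside an observed 0.86, and for ATF3 -0.03 beside an observed -0.03. So the foreseen value matched or passed the observed one for PAX6 and ATF3, and lay below it for NEUROD1 and ISL1. Both gaps were within the SE of the difference, which was too wide to tell a close match from a poor one. For ISL1 the foreseen value was about as large as the remainder. With the score as a covariate in the edgeR fit, the differences became -0.74 ± 0.47 for PAX6, -0.12 ± 0.27 for NEUROD1, 0.43 ± 0.37 for ISL1 and 0.02 ± 0.12 for ATF3 (SE). That fit called 0 genes at an adjusted p under 0.05, and 861 (3.51%) had an unadjusted p under 0.05.

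Across the transcriptome the foreseen differences accounted for a small share of the observed ones. Over 24496 genes the observed and foreseen log2 differences had a Pearson r of 0.31 and a Spearman rho of 0.31, as a description across genes that share the same 4 libraries. After subtraction of the foreseen value, 92.9% of the sum of squared differences was left. Among the 19252 genes that reached 1 CPM in at least 2 libraries, r was 0.47 and 78.5% was left. The relation rested on single libraries: r was 0.0533 without Moxifloxacin 2, 0.15 without Ly-294002 1 and 0.42 without Moxifloxacin 1. How much of the remainder is counting error, spread between cultures or the compounds was not tested.

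Cultures of one compound differed from each other about as much as cultures of different compounds. Over the same 19252 genes the root mean square log2 difference was 0.487 between the 2 Moxifloxacin libraries and 0.405 between the 2 Ly-294002 libraries. The 4 pairs made of 1 library of each compound gave 0.389, 0.388, 0.597 and 0.472. The smallest, 0.389 and 0.388, were those with Moxifloxacin 1, and the largest was Moxifloxacin 2 against Ly-294002 1, the pair with the largest score difference, 1.38.

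The wider list of islet transcription factors leaned the same way as its 3 best known members. Of 25 tested, 23 lay above 0, where 49.7% of all tested genes did, with a median log2 difference of 0.62 beside 0.00 over all genes; 0 had an unadjusted p under 0.05. The foreseen median was 0.43 and the median with the score as a covariate -0.08. In 6 of the 25 both Moxifloxacin cultures lay above both Ly-294002 cultures, beside 18.3% of all genes. NKX6-1, a factor of beta cells, had 0.839 and 8.61 CPM with Moxifloxacin, against 0.619 and 2.08 CPM with Ly-294002. PDX1, which marks both the pancreatic epithelium and beta cells, had 48.3 and 50.3 CPM with Moxifloxacin, against 22.7 and 48.1 CPM with Ly-294002, so that 1 Ly-294002 culture stood below the other 3. NEUROG3, the factor that starts the endocrine cascade, was listed at 0 reads in all 4 libraries. Without Moxifloxacin 2 the median of the list was -0.06, and without Moxifloxacin 1 it was 1.01.

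Hormone genes gave the same picture at low levels. Of 13 islet and gut peptide hormones tested, 11 lay above 0 and 0 had an unadjusted p under 0.05; the median was 1.02, the foreseen median 0.90 and the median with the score 0.03. Somatostatin (SST), the hormone of delta cells, had 3.81 and 27.2 CPM with Moxifloxacin, against 3.62 and 6.92 CPM with Ly-294002. Glucagon (GCG), the hormone of alpha cells, had 2.56 and 9.79 CPM with Moxifloxacin, against 1.11 and 5.97 CPM with Ly-294002. In both genes, as in INS, Moxifloxacin 2 stood above the other 3 libraries and Ly-294002 2 came next. Neurotensin (NTS), a gut and brain peptide, had 21.6 and 48.0 CPM with Moxifloxacin, against 9.16 and 18.8 CPM with Ly-294002, with no overlap; its log2 difference was 1.32 ± 0.86 (SE), of which 0.90 was foreseen. Without Moxifloxacin 2 the median of the hormone list was 0.24, and without Ly-294002 2 it was 2.10.

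Genes of beta cell function, some of which sense glucose or couple it to secretion, had a median of 0.46 over 17 tested members. Of these 13 lay above 0, and the foreseen median was 0.34. CASR, the calcium-sensing receptor, had 12.2 and 15.0 CPM with Moxifloxacin, against 8.21 and 8.41 CPM with Ly-294002. Enterochromaffin-like genes, which mark serotonin-producing cells that appear in such cultures, had a median of 0.42 over 10 members with 8 above 0, and a foreseen median of 0.29. TPH1, the enzyme that starts serotonin synthesis, had 1.95 and 3.85 CPM with Moxifloxacin, against 1.76 and 1.65 CPM with Ly-294002. The median of this list was 0.03 without Moxifloxacin 2, and that of the beta cell list 0.13.

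Genes of neurons and neural crest, several of which endocrine cells also use, had a median of 0.55 with 12 of 15 tested above 0, a foreseen median of 0.22 and -0.01 with the score. ELAVL3, a neuronal RNA-binding protein, had 1.03 and 2.19 CPM with Moxifloxacin, against 0.293 and 0.55 CPM with Ly-294002. The neural crest factor SOX10 had 0 to 1 reads in each library. Without Moxifloxacin 2 the median of the list was -0.15.

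**Figure D3:**
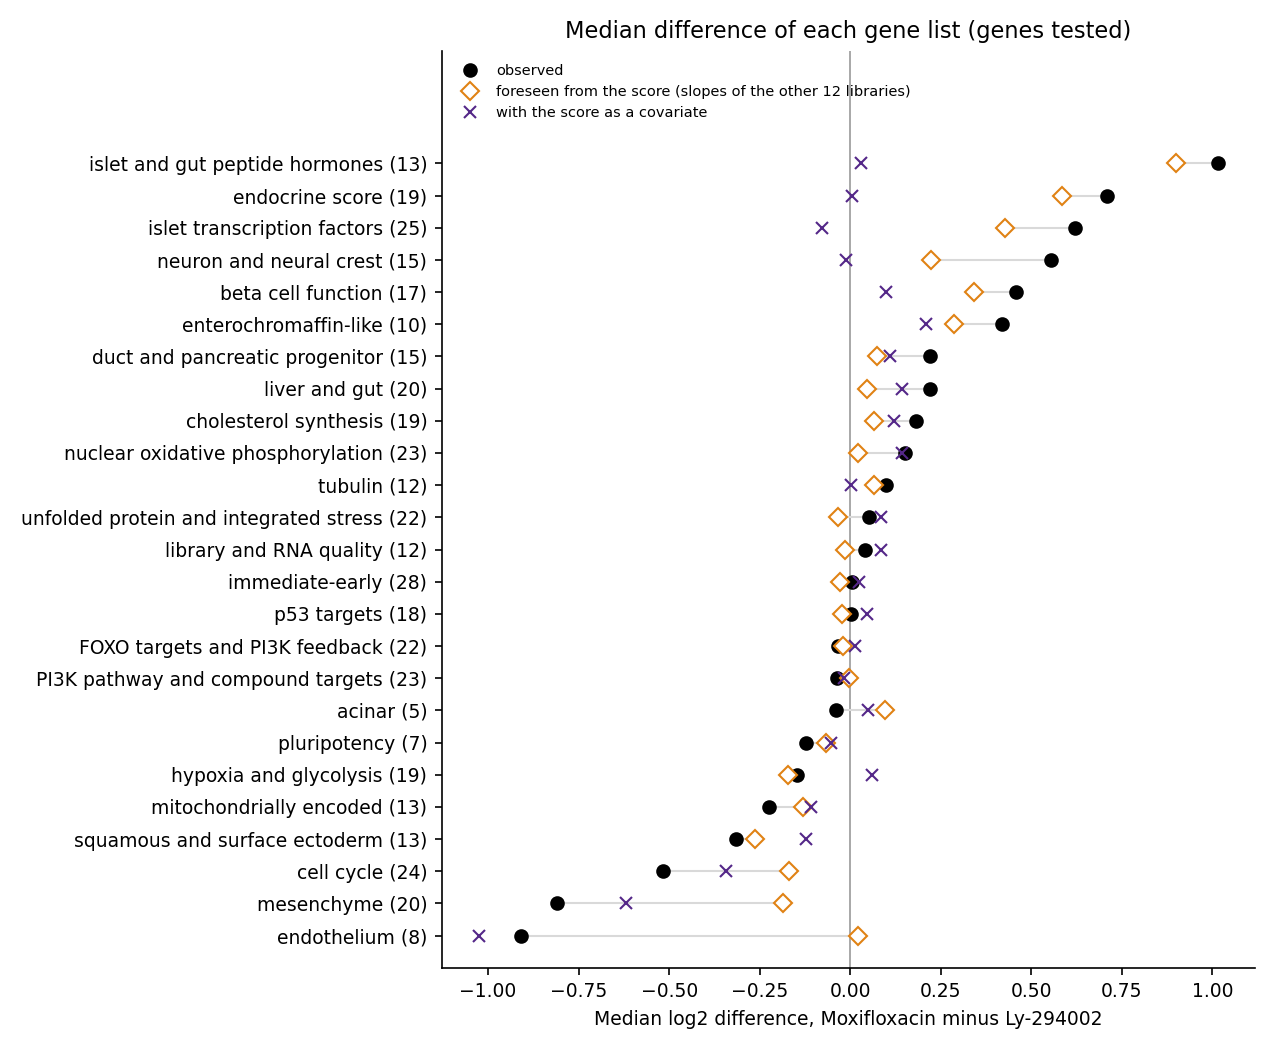
Median log2 difference, Moxifloxacin minus Ly-294002, of 25 gene lists with the number of genes tested in brackets: observed (black), foreseen from the endocrine score with slopes from the other 12 libraries (orange) and with the score as a covariate (cross). For hormones and islet transcription factors the orange marker lies near the black one, at 0.90 beside 1.02 and 0.43 beside 0.62, while for mesenchyme, cell cycle and endothelium it lies nearer to 0.

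Mesenchymal genes were lower in the Moxifloxacin cultures, by more than the slopes of the other 6 groups on the endocrine score foresaw. Of 20 tested, 19 lay below 0, with a median log2 difference of -0.81; 8 were lower at an unadjusted p under 0.05 (background 2.81%), and none of them passed after adjustment. In 17 of the 20 both Moxifloxacin cultures lay below both Ly-294002 cultures, where 18.7% of all tested genes had that order. Members of this list, as of the others, share the same 4 libraries, so their number does not count independent observations. The foreseen median was -0.19, and with the score as a covariate it was -0.62. The median was -1.20 without Moxifloxacin 1 and -0.56 without Moxifloxacin 2. Cultures of the same compound also differed in this list. The median was -0.71 for Moxifloxacin 2 minus Moxifloxacin 1 and -0.45 for Ly-294002 2 minus Ly-294002 1, at score differences of 1.03 and 0.632. Per unit of score both were steeper than the foreseen -0.19 at 0.549. Whether slopes from the other 6 groups hold for these cultures was not tested. Among all 16 libraries Ly-294002 1 had the highest median level of the list and Moxifloxacin 2 the lowest, with Ly-294002 2 at rank 5 and Moxifloxacin 1, near the middle, at rank 9.

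The 4 members with the smallest p were PDGFRB, POSTN, COL1A2 and THY1. POSTN, a matrix protein of fibroblasts (ENSG00000133110, chromosome 13, 37562585 to 37598768), had 75.1 and 62.4 CPM with Moxifloxacin, against 147.8 and 127.9 CPM with Ly-294002. Its log2 difference was -1.004 ± 0.31 (SE), and -0.11 was foreseen. PDGFRB, the growth factor receptor of pericytes and fibroblasts, had 16.6 and 11.2 CPM with Moxifloxacin, against 25.7 and 22.7 CPM with Ly-294002. In both genes the higher Moxifloxacin value lay below the lower Ly-294002 value. COL1A2, a chain of type I collagen, had 365 and 215 CPM with Moxifloxacin, against 615 and 412 CPM with Ly-294002, a log2 difference of -0.82 ± 0.28. THY1, a surface protein of fibroblasts, had 1.56 and 0.278 CPM with Moxifloxacin, against 3.88 and 3.03 CPM with Ly-294002. The edgeR adjusted p was 0.935 for each of the 4.

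RUNX2 and CACNA1C, outside that list, were among the genes with the smallest p. RUNX2, the master factor of bone-forming cells, had 3.47 and 2.85 CPM with Moxifloxacin, against 8.77 and 6.84 CPM with Ly-294002, a log2 difference of -1.31 ± 0.29 (SE). CACNA1C, the pore of the L-type calcium channel, used by muscle, neurons and beta cells, had 26.7 and 23.9 CPM with Moxifloxacin, against 52.8 and 37.5 CPM with Ly-294002, a difference of -0.83 ± 0.18. The endocrine score foresaw 0.00 and 0.08 for them. The edgeR adjusted p was 0.935 for both.

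Endothelial genes other than FLT1 stood at low levels. FLT1, a VEGF receptor, had 116 and 127.6 CPM with Moxifloxacin, against 137 and 151 CPM with Ly-294002, a log2 difference of -0.24 ± 0.60 (SE). Of 8 tested, 6 lay below 0 and 3 were lower at an unadjusted p under 0.05 (background 2.81%), with a median of -0.91, a foreseen median of 0.02 and -1.03 with the score. TEK, the angiopoietin receptor of vessels, had 0.381 and 0.521 CPM with Moxifloxacin, against 1.86 and 1.65 CPM with Ly-294002, from 10 and 15 reads against 57 and 42. KDR, the main VEGF receptor, had 0.954 and 0.625 CPM with Moxifloxacin, against 2.31 and 3.18 CPM with Ly-294002. In TEK and KDR the groups did not overlap, and the log2 differences were -1.95 ± 0.44 and -1.80 ± 0.63 (SE). CDH5, the endothelial cadherin, overlapped, with 3 and 2 reads with Moxifloxacin and 1 and 14 reads with Ly-294002, so that 2 of the 4 values lay under the floor of 3 reads. The median of the list was -0.24 when genes had to reach 1 CPM in 2 libraries, and -0.30 without Ly-294002 2.

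Genes of the cell cycle were lower with Moxifloxacin in every tested member. All 24 lay below 0, with a median of -0.52, and 6 were lower at an unadjusted p under 0.05 (background 2.81%). In 19 of the 24 both Moxifloxacin cultures lay below both Ly-294002 cultures, beside 18.7% of all genes. PCNA, the sliding clamp of DNA replication, had 23.8 and 17.3 CPM with Moxifloxacin, against 30.4 and 30.3 CPM with Ly-294002, a log2 difference of -0.56 ± 0.20 (SE). TOP2A, the topoisomerase of dividing cells, had 76.2 and 41.4 CPM with Moxifloxacin, against 115 and 90.3 CPM with Ly-294002, a difference of -0.81 ± 0.42. Both genes were lowest in Moxifloxacin 2, and no member had an edgeR adjusted p under 0.05. The foreseen median of the list was -0.17, with the score it was -0.34, and without Moxifloxacin 2 it was -0.26. Within a compound the median was -0.50 for Moxifloxacin 2 minus Moxifloxacin 1 and -0.24 for Ly-294002 2 minus Ly-294002 1. Cell cycle genes are expressed together in dividing cells, so their number does not count independent observations.

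**Figure D4:**
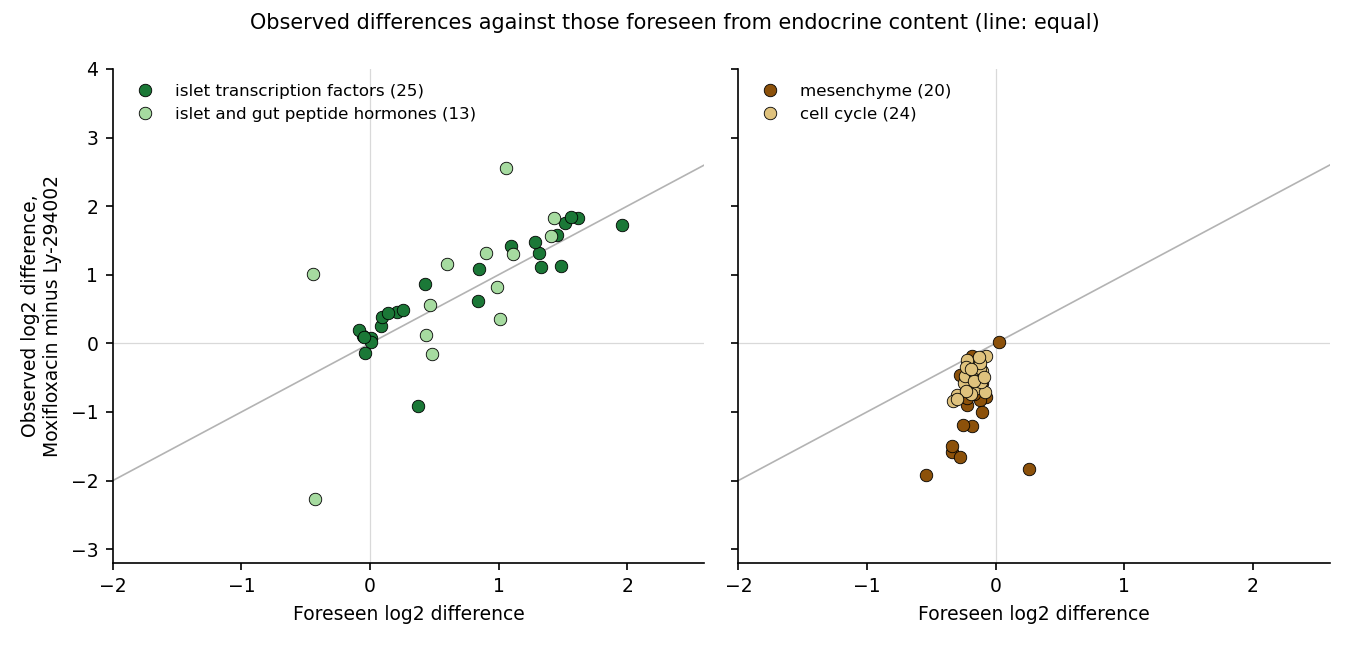
Observed against foreseen log2 difference, Moxifloxacin minus Ly-294002, for tested genes of 4 lists, with the line of equality. On the left most islet transcription factors and hormones lie near the line, while on the right mesenchymal and cell cycle genes lie below it, with observed medians of -0.81 and -0.52 at foreseen medians of -0.19 and -0.17.

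The other topoisomerases had small differences. TOP2B, a human type II enzyme related to the bacterial targets of Moxifloxacin, had 305 and 284 CPM with Moxifloxacin, against 318 and 333 CPM with Ly-294002, a log2 difference of -0.14 ± 0.09 (SE). TOP1 had 182 and 166 CPM with Moxifloxacin, against 193 and 179 CPM with Ly-294002, a difference of -0.09 ± 0.10. TOP1MT, the mitochondrial enzyme, had 20.4 and 18.8 CPM with Moxifloxacin, against 20.8 and 19.4 CPM with Ly-294002, with overlapping groups.

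Genes of the PI3K pathway, the target of Ly-294002, had a median of -0.04 over 23 tested members. PIK3CA and PIK3CB, the catalytic subunits found in most cells, differed by -0.08 ± 0.12 and 0.14 ± 0.11 (SE). PIK3CD, the subunit best known from white blood cells, had 16.4 and 15.9 CPM with Moxifloxacin, against 11.3 and 12.8 CPM with Ly-294002, a difference of 0.42 ± 0.14. Its edgeR adjusted p was 0.935, and both Moxifloxacin cultures lay above both Ly-294002 cultures. PIK3CG had 0 reads in the 4 libraries.

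FOXO targets and feedback genes, which respond to the activity of that pathway, had a median of -0.03 over 22 tested with 10 above 0, and 0 at an unadjusted p under 0.05. SESN3, a FOXO target, had 495 and 448 CPM with Moxifloxacin, against 552 and 501 CPM with Ly-294002. ERBB3, a receptor that FOXO factors induce, had 264 and 295 CPM with Moxifloxacin, against 237 and 259 CPM with Ly-294002. SESN3 and ERBB3 stood on opposite sides of 0, at -0.16 ± 0.13 and 0.17 ± 0.15 (SE).

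Stress and early response genes, the class of ATF3, centred on 0. Of 28 immediate-early genes tested, 14 lay above 0 with a median of 0.01, and 0 had an unadjusted p under 0.05. FOSB had 191 and 174 CPM with Moxifloxacin, against 266 and 220 CPM with Ly-294002, and FOS had 326 and 271 CPM with Moxifloxacin, against 378 and 288 CPM with Ly-294002. DUSP1, a phosphatase that ends MAP kinase signals, had 93.7 and 99.6 CPM with Moxifloxacin, against 84.8 and 88.7 CPM with Ly-294002. Genes of the unfolded protein and integrated stress responses had a median of 0.05 over 22 tested, 12 of them above 0. Targets of p53 had a median of 0.00 over 18 tested; CDKN1A, the cell cycle inhibitor, had 61.4 and 66.8 CPM with Moxifloxacin, against 49.4 and 53.7 CPM with Ly-294002, a difference of 0.32 ± 0.10 (SE, edgeR adjusted p = 0.935).

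Liver, gut and duct genes, and those of oxidative phosphorylation and cholesterol synthesis, lay slightly higher with Moxifloxacin. The squamous and the hypoxia and glycolysis lists, given further below, had medians under 0. Of 20 liver and gut genes, 20 lay above 0 with a median of 0.22, and 12 had both Moxifloxacin cultures above both Ly-294002 cultures, beside 18.3% of all genes. CEBPA, a factor of hepatocytes, had 38.1 and 35.7 CPM with Moxifloxacin, against 29.01 and 26.4 CPM with Ly-294002. TFF3, a mucosal peptide of the gut, had 7.67 and 8.36 CPM with Moxifloxacin, against 5.25 and 5.11 CPM with Ly-294002. Duct and progenitor genes had a median of 0.22 with 14 of 15 above 0. The foreseen medians were 0.05 for liver and gut and 0.07 for duct genes. Without Moxifloxacin 2 the duct median was 0.13. The counts of members here and in the metabolic lists below are not counts of independent observations either.

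Nuclear genes of oxidative phosphorylation had a median of 0.15 with 22 of 23 above 0, and 16 had no overlap in that direction, beside 18.3% of all genes. COX5B, a subunit of cytochrome c oxidase, had 27.7 and 29.01 CPM with Moxifloxacin, against 21.5 and 22.4 CPM with Ly-294002, a log2 difference of 0.37 ± 0.11 (SE). The foreseen median was 0.02 and the median with the score 0.14. Genes of cholesterol synthesis had a median of 0.18 with 18 of 19 above 0 and 14 without overlap, beside the same 18.3%, and a foreseen median of 0.07. MVD, an enzyme of the mevalonate pathway, had 59.5 and 60.8 CPM with Moxifloxacin, against 46.3 and 49.99 CPM with Ly-294002. In both lists 3 members were higher at an unadjusted p under 0.05 (background 1.84%), and no adjusted p was under 0.05.

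Mitochondrially encoded genes ran the other way. All 13 lay below 0, with a median of -0.22, a foreseen median of -0.13 and 0 at an unadjusted p under 0.05; 12 had both Moxifloxacin cultures below both Ly-294002 cultures, beside 18.7% of all genes. MT-ND2, a subunit of complex I, had 1072 and 923 CPM with Moxifloxacin, against 1219 and 1199 CPM with Ly-294002. The mitochondrial transcripts took 2.15% and 2.06% of the reads with Moxifloxacin and 2.34% and 2.44% with Ly-294002. These genes come from 1 polycistronic genome, so they are not independent.

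Library properties moved with some of these lists. The median log2 deviation of GC-rich genes from their mean over the 16 libraries, minus that of GC-poor genes, was -0.049 and 0.078 with Moxifloxacin, against -0.170 and -0.141 with Ly-294002, without overlap. RN7SL1, a short noncoding RNA of the signal recognition particle with near-identical copies, had 9769 and 8382 CPM with Moxifloxacin, against 6569 and 6358 CPM with Ly-294002. An offset for GC content gave medians of 0.11 for oxidative phosphorylation, 0.15 for cholesterol synthesis, 0.23 for liver and gut, -0.18 for mitochondrially encoded genes, -0.85 for mesenchyme and -0.52 for the cell cycle. The part of other library properties in these values was not tested.

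The 4 pairs of single libraries show how closely each list followed endocrine content. In Moxifloxacin 1 against Ly-294002 2, the Ly-294002 culture had the higher score, by 0.284. In that pair the median was -0.42 for islet transcription factors and -0.26 for hormones, the opposite sign to the group comparison. The other 3 pairs, with score differences of 0.348, 0.75 and 1.38, gave medians of 0.34, 0.94 and 1.15 for islet transcription factors. Mesenchyme had a median of -0.19 in the pair with the negative score difference, and -0.78, -0.94 and -1.44 in the others. Cell cycle genes had -0.13 in that pair, and -0.36, -0.69 and -0.79 in the others. Both lists thus kept their sign in all 4 pairs while their size went with the score difference. Oxidative phosphorylation stayed between 0.12 and 0.18 over the 4 pairs, and ISL1 lay above 0 in all 4, at 0.45 to 1.18. The sign for ISL1 follows from its lack of overlap and adds nothing to it. The signs of mesenchyme, cell cycle and oxidative phosphorylation likewise follow from the lack of overlap in most of their members. The 4 pairs share libraries and are not independent.

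**Figure D5:**
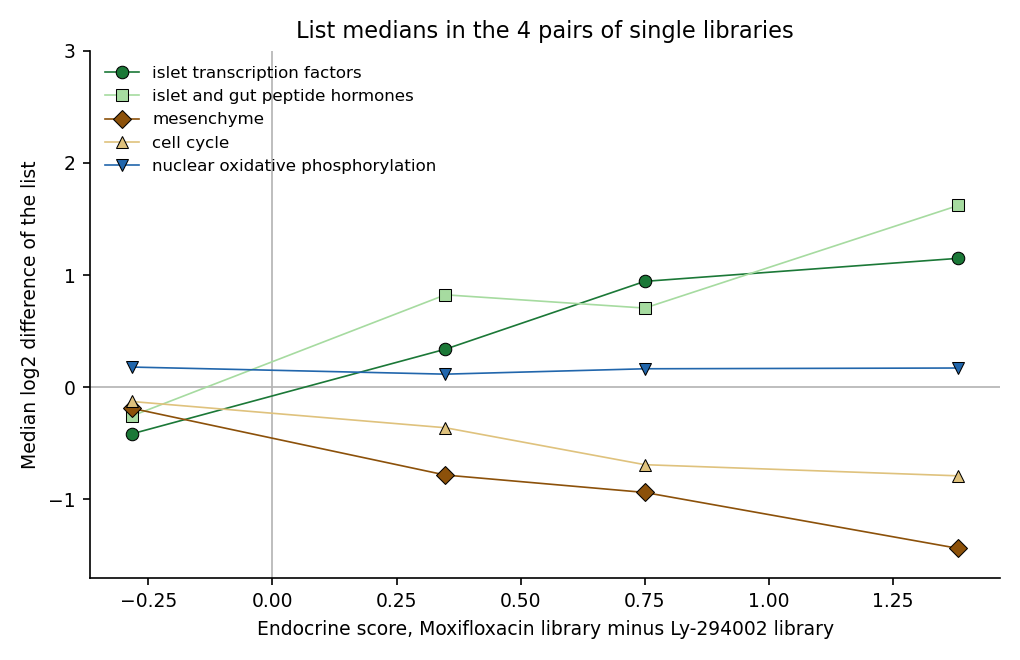
Median log2 difference of 5 gene lists in each of the 4 pairs of 1 Moxifloxacin and 1 Ly-294002 library, against the difference in endocrine score of the pair. Islet transcription factors and hormones cross 0 and are negative only where the score difference is, mesenchyme and cell cycle genes stay below 0 in each pair, and oxidative phosphorylation stays level between 0.12 and 0.18.

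The single genes with the smallest p had low levels for the most part. DPPA4, a gene of pluripotent cells, had 0.915 and 0.729 CPM with Moxifloxacin, against 5.15 and 2.67 CPM with Ly-294002, from 24 and 21 reads against 158 and 68. Its log2 difference was -2.25 ± 0.46 (SE), and -0.36 was foreseen. POU5F1, the defining factor of pluripotency, had 0 to 1 reads in each library, and the pluripotency list had a median of -0.12 over 7 tested genes. Among genes higher with Moxifloxacin, TNNC1, the troponin C of slow and heart muscle, had 13.4 and 14.6 CPM with Moxifloxacin, against 7.66 and 10.5 CPM with Ly-294002, and RHOC, a small GTPase of the cytoskeleton, had 79.5 and 86.4 CPM with Moxifloxacin, against 62.0 and 66.0 CPM with Ly-294002. Their log2 differences were 0.63 ± 0.16 and 0.37 ± 0.10 (SE). HLA-DRB1, an antigen-presenting gene with close paralogues that could share its reads, had 1.98 and 1.91 CPM with Moxifloxacin, against 0.945 and 0.707 CPM with Ly-294002. LINC02747, a long noncoding RNA, had 1.37 and 1.94 CPM with Moxifloxacin, against 0.554 and 0.511 CPM with Ly-294002. The last of the smallest-p genes carry identifiers only, ENSG00000273328 higher and ENSG00000260249 lower with Moxifloxacin, by 2.40 and -1.69 on the log2 scale. In all of these both Moxifloxacin cultures lay on the same side of both Ly-294002 cultures, which the rule that named them required, and the edgeR adjusted p was 0.935.

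The remaining lists held markers of other cells and states. Hypoxia and glycolysis genes had a median of -0.15 with 4 of 19 above 0 and a foreseen median of -0.17. Squamous and surface ectoderm genes had a median of -0.32 over 13 tested, tubulin genes 0.10 over 12, and 12 genes that track library and RNA quality 0.04. Of 12 acinar genes 5 could be tested, with a median of -0.04; PRSS1, the trypsinogen, had 1.03 and 0.555 CPM with Moxifloxacin, against 0.196 and 0.236 CPM with Ly-294002, from 6 reads in each Ly-294002 library.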

How the data were processed

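Total RNA was sequenced from whole cultures, 16 libraries in 8 groups, of which 4 are compared. Per the labels' protocols, Trimmomatic 0.38 trimmed the reads, STAR 2.7.1a aligned them and featureCounts 1.6.0 or HTSeq counted them; the submitters' processing notes name GRCh38. The sources used here do not give the annotation release or strand setting, so antisense and overlapping genes are uncertain. The authors deposited raw counts per gene for 62754 genes, 20393 of them without a symbol; no per-sample column was left unmapped. Counts were fitted in R 4.3.3 with edgeR 4.0.16 (filterByExpr, TMM, robust quasi-likelihood F test) over all 16 libraries, which leaves 8 residual degrees of freedom; the 24515 genes kept held 99.92% of the reads. The contrast was Moxifloxacin minus Ly-294002, with Benjamini-Hochberg adjustment over all tested genes and a threshold of 0.05. DESeq2 1.42.0 and other settings were alternatives. The endocrine score uses a pseudocount of 1. A GC value could be had for 95.3% of tested genes.

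The members and the 25 gene lists were chosen with earlier results of these data known. Named were PAX6, ISL1, NEUROD1 and ATF3, the 5 genes of smallest p per direction with at least 1 CPM in a group and no overlap (0 passed the threshold), up to 4 members of smallest p per list and a fixed panel of hormones, PI3K subunits and topoisomerases, 120 in all; the text gives a selection of these and leaves out an item that is not reported here, and the list members it adds (AFP, MAFA, NEUROG3, SOX10, POU5F1, FOS, FLT1) were picked after their values were seen.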

Additional observations from a re-analysis of the deposited data

How the results depend on the processing

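The call of 0 genes held with DESeq2 size factors, the DESeq2 test, a filter of 1 CPM, only the 4 libraries, no DMSO libraries, a GC offset, either covariate (endocrine score or CHGA) and each library left out. Without a filter on low counts 387 genes passed, with PAX6, ISL1 and NEUROD1 but not ATF3 among them, and there the estimated SE of PAX6 was 0.27 in place of 1.42 with infinite prior degrees of freedom. The labels do not tell whether the replicate numbers pair the samples. The correlation of the differences between replicate 2 and replicate 1 was 0.343 for the 2 compounds. Over the 28 pairs of groups it ran from -0.450 to 0.357, so the value for the 2 compounds lay near the upper end. The replicate block left 0 genes past the threshold, with 1013 below 0.05 before adjustment; the block and the score together left 0, with 805.

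The endocrine score difference of 0.549 was 0.436 on islet transcription factors, 1.08 on CHGA and 0.654 with a pseudocount of 0.1, and it ran from 0.0324 to 1.07 with 1 library left out. The correlation of observed with foreseen differences ran from 0.0533 to 0.418 with 1 library left out; the cause was not tested. Of the 120 named genes, 0 changed sign under the scaling, filter, tool and sample settings, 8 did with the score as a covariate, 6 with CHGA, 1 with the GC offset and 0 to 11 with 1 library left out, the most without Moxifloxacin 2. With 2 libraries a group the median SE at 1 CPM or more was 0.18, while PAX6 had 1.42, NEUROD1 1.24 and ISL1 0.49.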
